A study of Mus musculus with 2 samples.

Results

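Bile acid synthesis and the transporters of the liver cell were examined as a set of 35 named genes, out of 35275 genes with values, and all 35 were found by symbol. The set holds 13 synthesis genes, 6 uptake transporters, 9 exporters or lipid pumps of the canalicular membrane, 5 exporters of the basolateral membrane, and the 2 parts of the hepatic receptor for the gut hormone FGF15. RNA sequencing was done on liver tissue of 2 mice on the C57BL/6 background, both aged 10 months. The library labelled LTsc1KO came from a mouse of genotype TSC1-/-, a knockout directed at the liver, and the library labelled WT came from a wild type mouse. Tsc1 encodes part of the brake on the growth kinase mTORC1. The sources used here do not give the driver of the deletion, the deleted exons, the sex of either mouse or whether the WT mouse carried an unrecombined allele. The submitters' design text speaks of tumours that arise without inflammation, whereas both labels name liver, so whether a nodule was taken is not known.

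Hepatocytes make bile acids from cholesterol, join them to taurine or glycine, and pump them into the canaliculus, the small duct between neighbouring cells. Bile acids return from the gut in portal blood and are taken up again at the basolateral (sinusoidal) face, where another set of pumps can also send them back to blood. Bile acids that reach the ileum induce FGF15, which acts on hepatocytes through FGFR4 and its partner beta-Klotho and lowers synthesis.

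Each genotype is 1 library, so no difference below has a replicate check or a p-value, and it may be one between animals. Levels are FPKM (reads scaled to transcript length and library size), and the depth behind them was 29351163 reads for LTsc1KO and 27919645 for WT. Beside each ratio of FPKM stands its 95% interval by the exact Clopper-Pearson method, which reflects the counting of reads and no other error. Log2 ratios are of (FPKM + 1), which understates the difference of genes with low values. A gene with an FPKM of at least 1 in either library was called expressed, and a log2 ratio of at least 1 in size was called 2-fold. Tsc1 itself read 4.79 FPKM in LTsc1KO and 4.90 in WT, so the targeted gene does not check the labels, and every direction below depends on them: LTsc1KO and WT stand for the libraries so labelled. The median log2 ratio over 12395 expressed genes was 0.70, and each ratio is to be read against that shift. A second scaling set the median ratio of genes at 1 FPKM or more in both libraries to 0, which multiplied LTsc1KO values by 0.609. In bulk tissue, fewer cells of a type and less RNA per cell cannot be told apart.

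In the library labelled LTsc1KO, 9 of the 14 export genes were at least 2-fold higher than in the library labelled WT. Among them were Abcc2, Abcc3, Abcc4 and Abcg2. The bile salt pump Abcb11 and the sterol pump Abcg5 and Abcg8 were not among them, and Abcc6 was lower. The higher genes were 6 of 9 canalicular and 3 of 4 expressed basolateral exporters, against 35.6% of all expressed genes. These counts were 5 and 3 with the median ratio set to 0, against 15.6%, and 1 basolateral gene was then 2-fold lower. Slc51a is among the 14 but was not expressed. Abcb1b, Abcc4 and Slc51b, all counted as higher, were called expressed by their LTsc1KO level alone. Slc27a5, the ligase that activates bile acids for conjugation, was 3.61-fold lower, and the uptake carriers Slc10a1 and Slco1b2 were lower by less than 2-fold. Of the 35 genes 34 were expressed, Slc51a being the exception. The 2-fold limit was passed upwards by 14 of the 34 (41.2%), against 35.6% of all expressed genes, and downwards by 2 (5.88%), against 6.15%. Of the 34, 4 (11.8%) passed the filter through LTsc1KO alone, namely Slco1a1, Abcb1b, Abcc4 and Slc51b. All 4 are among the 14, as their choice by the library where they are high favours. Of all expressed genes 14.6% passed in that way. A 4-fold limit was passed upwards by 6 (17.6%), against 8.86% of all expressed genes, and downwards by 0, against 2.28%. At 2-fold, as deposited, both shares were near the background. Median log2 ratios were 2.81 for basolateral export, 1.91 for canalicular export, 0.85 for the FGF15 receptor, 0.44 for synthesis and -0.53 for uptake. The genes that passed through LTsc1KO alone enter these medians, 2 of 4 in basolateral export, 1 of 9 in canalicular export and 1 of 6 in uptake. With the median ratio set to 0, the medians were 2.15, 1.20, 0.20, -0.27 and -1.23 in the same order. Under that scaling 9 genes (26.5%) passed the 2-fold limit upwards and 9 (26.5%) downwards, against 15.6% and 12.7% of expressed genes.

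**Figure D1:**
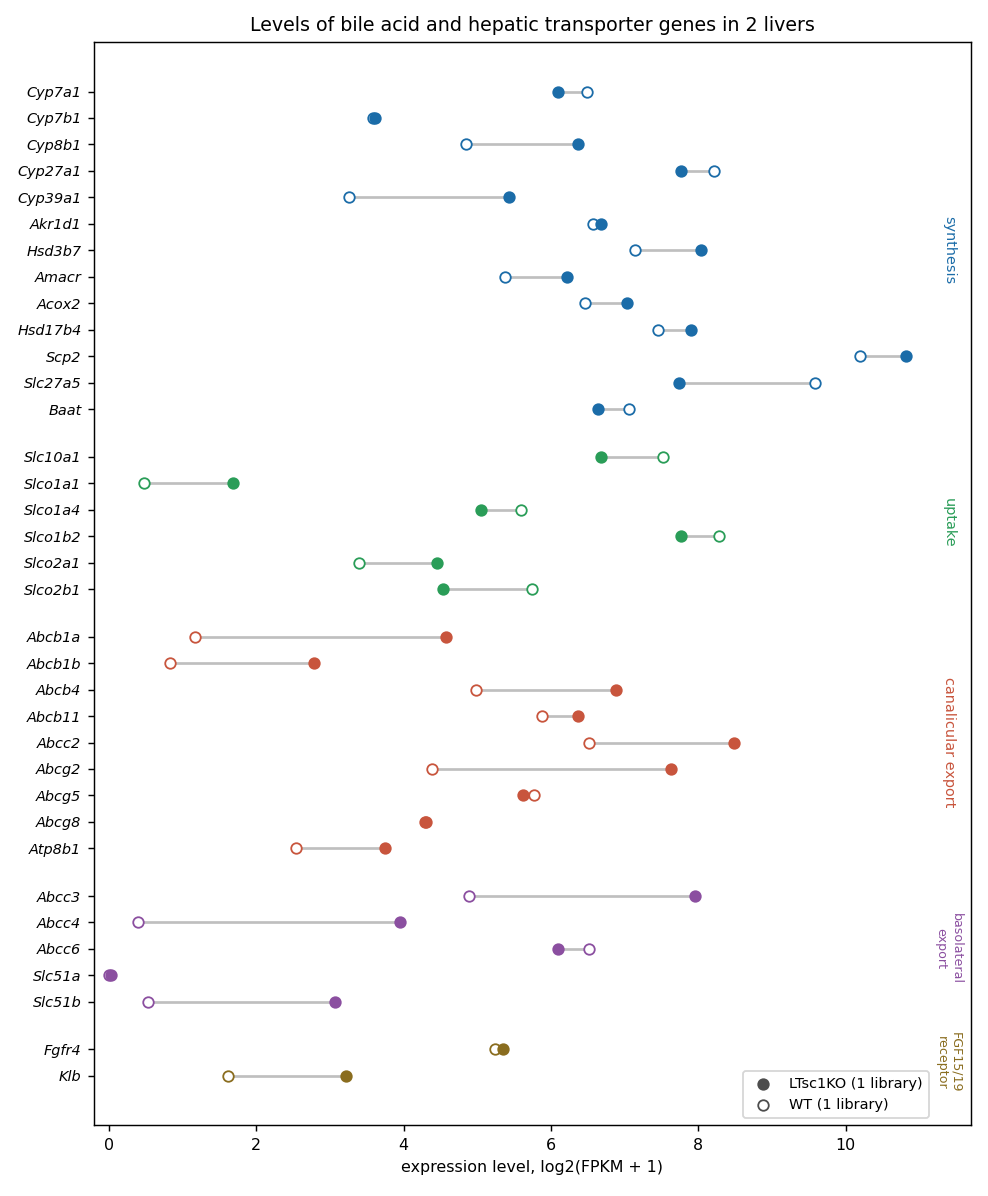
Expression level of the 35 genes, as log2(FPKM + 1), with filled points for the 1 library labelled LTsc1KO and open points for the 1 library labelled WT. Rows are grouped by class. Scp2 has the highest level in both libraries, and the widest distances are those of Abcc4, Abcb1a, Abcg2 and Abcc3, all higher in LTsc1KO.

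Synthesis genes stayed mostly between the 2-fold limits, with 10 of 13 there, 2 higher (15.4%, against 35.6% of expressed genes) and 1 lower (7.69%, against 6.15%). These counts were 1 and 4 with the median ratio set to 0, against 15.6% and 12.7% of expressed genes. Cyp7a1, the rate-limiting hydroxylase of the classical route, had 67.2 FPKM in LTsc1KO and 89.2 in WT, a ratio of 0.754 (interval 0.724 to 0.784). Its log2 ratio of -0.40 was -1.10 with the median ratio set to 0, past the 2-fold limit. Cyp7a1 transcripts are known to vary with the hour of day and with feeding, and the labels give neither. Cyp27a1, the mitochondrial hydroxylase that opens the alternative route, had 216 FPKM in LTsc1KO and 295 in WT (ratio 0.732, interval 0.709 to 0.755). Within each library the level of Cyp7a1 over that of Cyp27a1 was thus nearly the same, 0.311 in LTsc1KO and 0.302 in WT. Cyp7b1, which hydroxylates the oxysterols of the alternative route, read 11.2 FPKM in LTsc1KO and 11.0 in WT, and its interval of 0.916 to 1.14 spans 1.

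The 2 higher synthesis genes were other hydroxylases. Cyp8b1, which directs synthesis towards cholic acid, had 81.8 FPKM (4681 reads) in LTsc1KO and 27.8 FPKM (1516 reads) in WT, 2.94-fold higher (interval 2.77 to 3.11). Its log2 ratio was 1.52, above 82.7% of expressed genes, but 0.82 with the median ratio set to 0. Relative to Cyp7a1 in the same library, which no scaling affects, Cyp8b1 stood at 1.22 in LTsc1KO and 0.312 in WT. Cyp39a1, an oxysterol hydroxylase that acts on the side-chain hydroxylated sterol made mainly in brain, had 42.0 FPKM in LTsc1KO and 8.60 in WT. That is 4.89-fold higher (interval 4.44 to 5.40), a log2 ratio of 2.16 that remained at 1.47 with the median ratio set to 0. It was the only synthesis gene at least 2-fold higher under both of these scalings.

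Because Cyp8b1 had the highest log2 ratio among synthesis genes with a promoter window in the RefSeq table, that window is shown (chr9:121916256-121916555, minus strand, GRCm38.p6). It runs from 250 bases before the annotated start to 50 after it. Capitals here and in the windows below mark matches on either strand to TGACNNNGC, the core of the antioxidant response element, or to AGGTCA, the hexamer that many nuclear receptors bind. Here the 1 match is to the antioxidant core.
Cyp8b1: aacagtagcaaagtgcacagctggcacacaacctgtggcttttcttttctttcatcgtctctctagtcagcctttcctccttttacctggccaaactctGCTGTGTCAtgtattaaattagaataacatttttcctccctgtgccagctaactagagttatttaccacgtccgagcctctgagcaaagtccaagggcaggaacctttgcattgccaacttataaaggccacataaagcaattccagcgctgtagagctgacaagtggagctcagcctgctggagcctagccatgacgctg

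The enzymes that follow the first hydroxylations were higher by less than 2-fold as deposited. Hsd3b7, the steroid dehydrogenase that acts on the ring, had 261 FPKM in LTsc1KO and 140.0 in WT (ratio 1.86, interval 1.80 to 1.92). Part of its exons is shared in the annotation with Gm49388 on the same strand, so the split of reads between these is uncertain. Akr1d1, the reductase that sets the bend of the sterol ring, had 102 FPKM in LTsc1KO and 94.5 in WT (ratio 1.08, interval 1.02 to 1.13). Its log2 ratio of 0.10 lay below the median gene and was -0.60 with the median ratio set to 0. The 4 genes of side-chain shortening in the peroxisome had log2 ratios in a narrow range. Amacr, a racemase, stood at 0.85, Scp2, the thiolase and sterol carrier, at 0.62, Acox2, the branched-chain oxidase, at 0.57, and Hsd17b4, the bifunctional enzyme, at 0.44. Scp2 was the most abundant of all 35 genes, with 1805 FPKM in LTsc1KO and 1176 in WT. With the median ratio set to 0 the 4 peroxisomal genes lay between -0.27 and 0.14, close to the median gene.

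Genes of the last steps, in which bile acids are joined to amino acids, were lower. Slc27a5, the bile acid-CoA ligase, had 212 FPKM (6830 reads) in LTsc1KO and 765 FPKM (23431 reads) in WT, and was 3.61-fold lower (interval 3.51 to 3.71). Its log2 ratio of -1.85 was the lowest of the 35 genes, and only 2.65% of expressed genes stood below it. In WT it was the second synthesis gene by level and took 25.2% of the summed FPKM of the class, whereas in LTsc1KO it was the fifth and took 6.36%. Baat, the transferase that acts after it, had 98.3 FPKM in LTsc1KO and 133 in WT (ratio 0.742, interval 0.714 to 0.771). Slc27a5 over Baat stood at 2.16 in LTsc1KO and at 5.77 in WT, so the gap between the 2 genes does not rest on the scaling. No promoter window is shown for Slc27a5, Cyp7a1, Cyp39a1 or Abcc3.

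**Figure D2:**
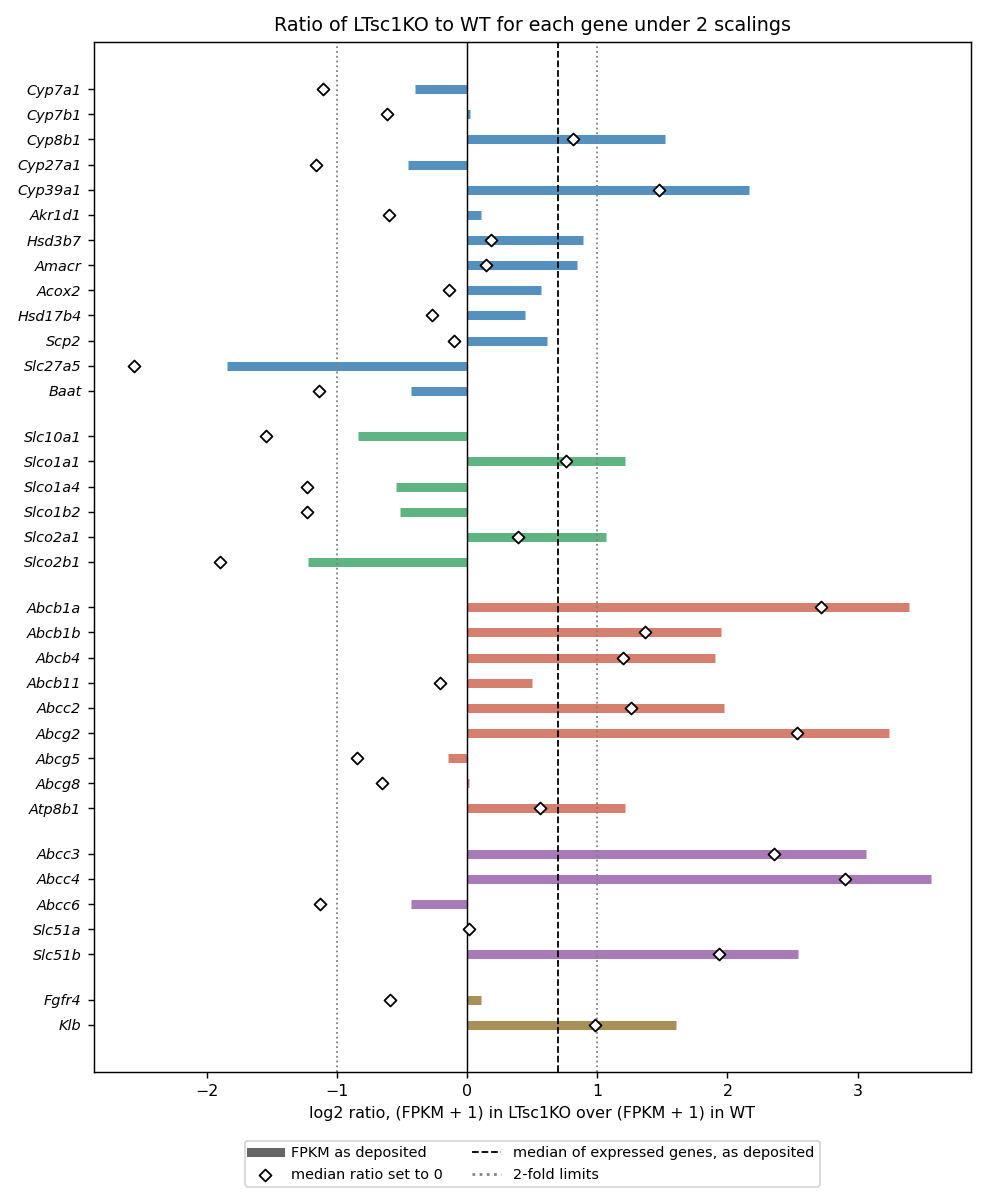
Log2 ratio of (FPKM + 1) in LTsc1KO over (FPKM + 1) in WT for each gene, 1 library each. Bars use FPKM as deposited and diamonds the values with the median ratio set to 0. The dashed line is the median of expressed genes, 0.70, and dotted lines are the 2-fold limits. Slc27a5 has the lowest bar (-1.85) and Abcc4 the highest (3.56). All diamonds of the 4 highest bars stay beyond 2.

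Transporters that bring bile acids and organic anions in from blood were divided by abundance: the 4 with the higher levels in WT were lower in LTsc1KO, and the 2 with the lowest levels in WT were higher. Slc10a1, the sodium-coupled bile acid carrier NTCP, had 102 FPKM in LTsc1KO and 183 in WT, 1.79-fold lower (interval 1.73 to 1.86). Slco1b2, the main hepatic organic anion transporter of the mouse, had 217 FPKM in LTsc1KO and 310.2 in WT, 1.43-fold lower (1.40 to 1.47). Both missed the 2-fold limit on the deposited scale, with log2 ratios of -0.84 and -0.52, and passed it with the median ratio set to 0, at -1.54 and -1.23. These 2 genes together held most of the summed uptake FPKM, which was 396 in LTsc1KO and 603 in WT.

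Slco2b1, a transporter of sulfated steroids and drugs, had 22.1 FPKM (1591 reads) in LTsc1KO and 52.8 FPKM (3616 reads) in WT and was 2.39-fold lower (interval 2.25 to 2.54). It was the only uptake gene at least 2-fold lower as deposited. Slco2b1 is also expressed outside hepatocytes, and the WT library contained skeletal muscle transcripts. The 8 muscle markers summed to 2.52 FPKM in LTsc1KO and 3256 in WT, with Mb, Myl1 and Tnnt3 at 0 in LTsc1KO. Their part in the Slco2b1 result was not tested.

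Slco1a1 and Slco1a4 are neighbours on chromosome 6, 51082 bases apart with no protein-coding gene between, and they differed in opposite directions. Slco1a4 had 32.2 FPKM in LTsc1KO and 47.4 in WT (ratio 0.680, interval 0.643 to 0.720). Slco1a1 had only 2.22 FPKM (217 reads) in LTsc1KO and 0.388 FPKM (36 reads) in WT, 5.73-fold higher with a wide interval (4.02 to 8.40). In mouse liver Slco1a1 is known to be far more abundant in males. Xist read 165 FPKM in LTsc1KO and 76.0 in WT, and 4 Y-linked genes summed to 0.292 and 0.0488. Both libraries thus had high Xist and a Y-linked sum under 1 FPKM, the pattern of female tissue. Reads may be split between these close relatives, which together summed to 34.4 FPKM in LTsc1KO and 47.7 in WT. Slco2a1, a prostaglandin carrier found in endothelial cells, had 20.97 FPKM in LTsc1KO and 9.49 in WT, 2.21-fold higher (2.06 to 2.37). Endothelial markers summed to 38.9 FPKM in LTsc1KO and 20.7 in WT, none of the 8 was at 0, and 2 of the 5 expressed ones (40.0%, against 35.6% of expressed genes) were at least 2-fold higher. Stab2, a scavenger receptor of sinusoids, made up most of that sum with 28.3 FPKM in LTsc1KO and 13.2 in WT, whereas the general marker Pecam1 had 1.23 and 1.98. Cdh5, Kdr and Ptprb, under 1 FPKM in both libraries, were also lower in LTsc1KO, and Lyve1, Fcgr2b and Clec4g were higher. Of the 2 counted as 2-fold higher, Stab2 and Lyve1, the latter passed the filter through LTsc1KO alone. With the median ratio set to 0, none of 3 expressed markers was 2-fold higher, against 15.6% of expressed genes. The part of endothelial cells in the Slco2a1 result was not tested. With the median ratio set to 0, Slco1a1 and Slco2a1 stood at 0.76 and 0.39, within the 2-fold limits.

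At the canalicular membrane 6 of 9 genes (66.7%, against 35.6% of expressed genes) were at least 2-fold higher in LTsc1KO and none was lower (against 6.15%). The first count was 5 with the median ratio set to 0, against 15.6% of expressed genes. Their summed level was 862 FPKM in LTsc1KO and 278 in WT. Abcb11, the bile salt export pump itself, was not among the 6. It had 82.0 FPKM (9338 reads) in LTsc1KO and 57.8 FPKM (6268 reads) in WT, a ratio of 1.42 (interval 1.37 to 1.46). Its log2 ratio of 0.50 lay below the median gene and was -0.21 with the median ratio set to 0, a change of sign.

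The pump for conjugated organic anions and bilirubin, Abcc2 (MRP2), had the highest level of the class in both libraries. It read 358 FPKM (24477 reads) in LTsc1KO and 90.4 FPKM (5886 reads) in WT, 3.96-fold higher (interval 3.84 to 4.07). Abcg2, the breast cancer resistance protein, which exports sulfated conjugates and drugs, had 198 FPKM (7092 reads) in LTsc1KO and 20.0 FPKM (682 reads) in WT, 9.89-fold higher (9.14 to 10.7). It was the fifth gene of the class by level in WT and the second in LTsc1KO. Within a library Abcg2 stood at 2.41 times Abcb11 in LTsc1KO and 0.346 times Abcb11 in WT. Abcc2 stood at 4.37 times Abcb11 in LTsc1KO and 1.56 times in WT. The windows of Abcc2 (chr19:43782058-43782357, plus strand) and of 1 Abcg2 start (chr6:58584283-58584582, plus strand) are shown because these are the most abundant exporters of the class in LTsc1KO. Abcc2 holds 1 antioxidant core and 1 hexamer, and this Abcg2 window holds 2 hexamers and no antioxidant core. The other Abcg2 windows, which begin at chr6:58596422 and chr6:58640296, hold 0 and 1 hexamers and no antioxidant core.
Abcc2: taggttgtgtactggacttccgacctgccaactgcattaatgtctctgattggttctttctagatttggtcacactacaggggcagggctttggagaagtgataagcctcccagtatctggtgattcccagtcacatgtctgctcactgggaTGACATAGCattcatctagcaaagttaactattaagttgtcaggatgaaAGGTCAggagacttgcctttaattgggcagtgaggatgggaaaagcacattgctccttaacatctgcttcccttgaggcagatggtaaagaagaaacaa
Abcg2: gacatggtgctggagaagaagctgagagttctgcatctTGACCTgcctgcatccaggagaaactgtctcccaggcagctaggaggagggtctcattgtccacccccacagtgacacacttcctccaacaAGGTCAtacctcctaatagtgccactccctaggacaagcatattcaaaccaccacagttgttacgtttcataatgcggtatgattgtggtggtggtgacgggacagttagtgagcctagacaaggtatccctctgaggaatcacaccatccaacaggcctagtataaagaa

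A run of 3 related genes on chromosome 5 was higher throughout. Abcb1a (8660077 to 8748575), Abcb1b (8798147 to 8866315) and Abcb4 (8893717 to 8959231) lie on the plus strand of GRCm38 with no protein-coding gene between them. Abcb1a and Abcb1b encode the drug pump P-glycoprotein, which mice carry as 2 genes. Abcb1a had 22.8 FPKM (1390 reads) in LTsc1KO and 1.26 FPKM (73 reads) in WT, 18.1-fold higher (interval 14.3 to 23.2). Abcb1b had 5.90 FPKM in LTsc1KO and 0.783 in WT, 7.53-fold higher (5.25 to 11.0). The pair is similar enough to share reads, and its summed level was 28.7 FPKM in LTsc1KO and 2.04 in WT. Abcb4, which moves phosphatidylcholine into bile and so protects the duct from bile salts, had 117 FPKM in LTsc1KO and 30.5 in WT, 3.84-fold higher (3.66 to 4.02). Abcb4 stood at 1.43 times Abcb11 in LTsc1KO and 0.528 times Abcb11 in WT. Log2 ratios of the 3 genes were 3.40, 1.95 and 1.91 along the chromosome, and 2.72, 1.36 and 1.20 with the median ratio set to 0. Atp8b1, a phospholipid flippase of the canaliculus, had 12.5 FPKM in LTsc1KO and 4.81 in WT, 2.59-fold higher (2.32 to 2.90), but its log2 ratio of 1.21 was 0.56 with the median ratio set to 0.

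The sterol exporter did not share in this. Abcg5 and Abcg8 encode the 2 subunits of 1 pump that sends cholesterol into bile. Abcg5 had 48.1 FPKM in LTsc1KO and 53.4 in WT (ratio 0.901, interval 0.847 to 0.957). Abcg8 had 18.7 FPKM in LTsc1KO and 18.5 in WT (ratio 1.01, interval 0.940 to 1.09). Abcg5 over Abcg8 was 2.56 in LTsc1KO and 2.88 in WT. The 2 genes are divided by strand and overlap at their starts on chromosome 17, where 209 bases of their promoter windows coincide, so reads there are uncertain without strand. The Abcg5 window (chr17:84682962-84683261, minus strand) is shown as the stretch shared in large part by both subunits, and it holds no match to either motif.
Abcg5: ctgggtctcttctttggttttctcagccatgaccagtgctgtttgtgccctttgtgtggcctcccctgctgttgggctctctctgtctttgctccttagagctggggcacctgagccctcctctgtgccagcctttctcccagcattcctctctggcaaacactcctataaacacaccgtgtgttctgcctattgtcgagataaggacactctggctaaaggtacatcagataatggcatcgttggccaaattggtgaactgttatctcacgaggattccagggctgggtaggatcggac

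Export across the basolateral membrane had the highest class median, 2.81 as deposited. That median includes Abcc4 and Slc51b, 2 of 4 expressed genes, which were called expressed by their LTsc1KO level alone. The remaining genes, Abcc3 and Abcc6, had log2 ratios of 3.07 and -0.43. Abcc4 (MRP4), which sends bile acids with glutathione back to blood, had 14.5 FPKM (1468 reads) in LTsc1KO and 0.312 FPKM (30 reads) in WT. Its reads are estimates, as no nearby transcript length gave whole reads in both libraries. It was 46.4-fold higher (interval 32.5 to 69.2), and its log2 ratio of 3.56 was the highest of the 35 genes and above 98.4% of expressed genes. Abcc3 (MRP3), which carries glucuronides and bile acids, had 247 FPKM (16887 reads) in LTsc1KO and 28.6 FPKM (1859 reads) in WT, 8.64-fold higher (8.24 to 9.07). Abcc3 was thus an abundant transcript in LTsc1KO, above 96.4% of expressed genes by FPKM, against 80.6% in WT. Set against the uptake carrier of the same library, Abcc3 stood at 2.43 times Slc10a1 in LTsc1KO and 0.157 times Slc10a1 in WT. Abcc6, a basolateral transporter whose human counterpart is mutated in pseudoxanthoma elasticum, was lower instead. It had 67.1 FPKM in LTsc1KO and 90.5 in WT (ratio 0.741, interval 0.711 to 0.772), and it was the leading gene of the class in WT, with 75.5% of the summed FPKM, and held 20.0% in LTsc1KO. Abcc4 is shown as the gene with the highest log2 ratio (chr14:118706170-118706469, minus strand), and this window, 1 of 2 for the gene, holds 1 antioxidant core.
Abcc4: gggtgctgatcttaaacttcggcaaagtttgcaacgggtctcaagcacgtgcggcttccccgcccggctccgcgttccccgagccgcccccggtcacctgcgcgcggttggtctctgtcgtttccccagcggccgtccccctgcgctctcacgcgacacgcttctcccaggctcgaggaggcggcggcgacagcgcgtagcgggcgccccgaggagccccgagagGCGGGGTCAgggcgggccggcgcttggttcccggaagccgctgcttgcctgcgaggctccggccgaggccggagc

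Slc51a and Slc51b encode the 2 subunits of the organic solute transporter, which works only as a pair. Slc51b had 7.40 FPKM (159 reads) in LTsc1KO and 0.440 FPKM (9 reads) in WT, 16.8-fold higher with a wide interval (8.63 to 37.4). Slc51a had 1 read in LTsc1KO and 0 in WT, both under the floor of 3 reads, so no ratio is given and its transcript was not detectable at this depth. The floor corresponds to 0.0557 FPKM in LTsc1KO and 0.0585 in WT for this gene. Exons of Slc51b overlap those of Rasl12 on the opposite strand, and the sources used here do not say whether strand was kept. Cholangiocytes, the cells of bile ducts, also express solute transporters, and their markers were higher in LTsc1KO. Of the 10 markers 8 were expressed, 5 of these (62.5%, against 35.6% of expressed genes) at least 2-fold higher and none lower. Krt19, Epcam and Cldn7, all counted as higher, were called expressed by their LTsc1KO level alone. The 10 markers summed to 639 FPKM in LTsc1KO and 50.1 in WT, of which Spp1 made up 575 and 36.9. The defining keratin Krt19 read 2.46 FPKM in LTsc1KO and 0.328 in WT. Slc10a2, the apical bile acid carrier of cholangiocytes, had 2.99 FPKM in LTsc1KO and 5.65 in WT. The part of these cells in the exporter results was not tested.

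**Figure D3:**
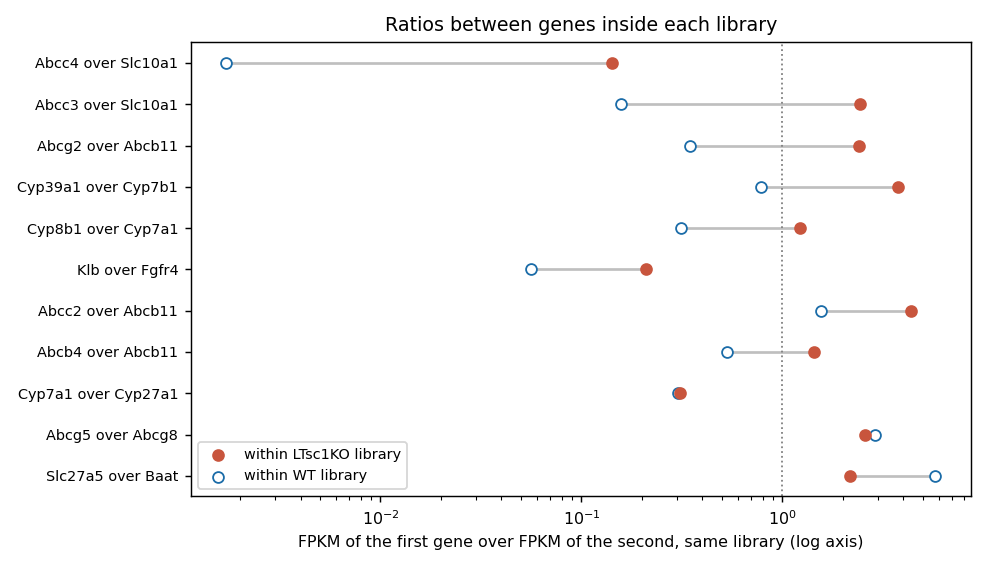
FPKM of 1 gene over that of another in the same library, on a log axis, with filled red points for LTsc1KO and open blue points for WT, 1 library each. These quotients need no scaling between libraries. Abcc4 and Abcc3 over Slc10a1 show the widest separation, and Cyp7a1 over Cyp27a1 and Abcg5 over Abcg8 the narrowest.

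The receptor for FGF15 was unequal in its 2 parts. Fgfr4, the tyrosine kinase, had 39.7 FPKM in LTsc1KO and 36.9 in WT (ratio 1.08, interval 1.00 to 1.16). Klb, which encodes beta-Klotho, had 8.28 FPKM (842 reads) in LTsc1KO and 2.06 FPKM (199 reads) in WT, 4.02-fold higher (3.44 to 4.72). With the median ratio set to 0, Klb had a log2 ratio of 0.98, just inside the 2-fold limit, and Fgfr4 had -0.59. Klb over Fgfr4 was 0.209 in LTsc1KO and 0.0558 in WT.

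Of 16 regulators of bile acid genes 13 were expressed, with 4 at least 2-fold higher in LTsc1KO (30.8%, against 35.6% of expressed genes) and 1 lower (7.69%, against 6.15%). Their median log2 ratio was 0.31. With the median ratio set to 0 the counts were 2 and 2, against 15.6% and 12.7% of expressed genes. Nr1h4, which encodes the bile acid receptor FXR, had 69.4 FPKM in LTsc1KO and 74.5 in WT, and its target Nr0b2, the repressor SHP, had 31.6 and 35.3. The 2 highest were S1pr2, a membrane receptor for conjugated bile acids, at 11.3 FPKM in LTsc1KO and 0.891 in WT, and Ppara, the fatty acid receptor, at 44.5 and 11.9. S1pr2 was called expressed by its LTsc1KO level alone. The 2 lowest were Nr1i3, the xenobiotic receptor CAR, at 16.4 FPKM in LTsc1KO and 47.6 in WT, and Rxra, the common partner of these receptors, at 143 and 230.2. Nr5a2 (LRH-1), an activator of Cyp8b1 and Cyp7a1, had 15.1 FPKM in LTsc1KO and 4.53 in WT. Fgf15, a hormone of the gut, was at 0 in both.

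Among 8 other enzymes of bile acid handling, 7 were expressed, 1 at least 2-fold higher (14.3%, against 35.6%) and 2 lower (28.6%, against 6.15%), with a median log2 ratio of 0.18. Cyp46a1, the hydroxylase that makes the sterol on which Cyp39a1 acts, had 22.9 FPKM in LTsc1KO and 1.08 in WT. Next highest was Acot8, a peroxisomal thioesterase, with a log2 ratio of 0.95. Sult2a8, a bile acid sulfotransferase of the mouse, had 11.9 FPKM in LTsc1KO and 94.0 in WT, and Cyp3a11, a detoxifying P450, had 136 and 301. Cyp2c70, which makes the muricholic acids of the mouse, had 481 FPKM in LTsc1KO and 727 in WT.

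NRF2, which induces genes against oxidative stress, is known to act on Abcc2, Abcc3 and Abcc4 in mouse liver. Of 8 other NRF2 target genes 6 (75%, against 35.6% of expressed genes) were at least 2-fold higher in LTsc1KO and none lower, with a median log2 ratio of 2.31. With the median ratio set to 0 the count was 5, against 15.6% of expressed genes, and the median was 1.62. Hmox1, heme oxygenase, had 143 FPKM in LTsc1KO and 9.001 in WT, and Gclc, of glutathione synthesis, had 202 and 14.6. The lowest were Gclm at 0.53 and Txnrd1 at 0.92. Whether these and the exporters share a cause was not tested. Of the 35 genes 25 had at least 1 promoter window in RefSeq, 33 windows in all. The antioxidant core was in 9 of the 33 (27.3%), against 12.4% of all 32851 windows in the table, and the hexamer was in 11 (33.3%), against 16.3%. Some windows of 1 gene overlap. A match is a description of letters and not of binding.

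**Figure D4:**
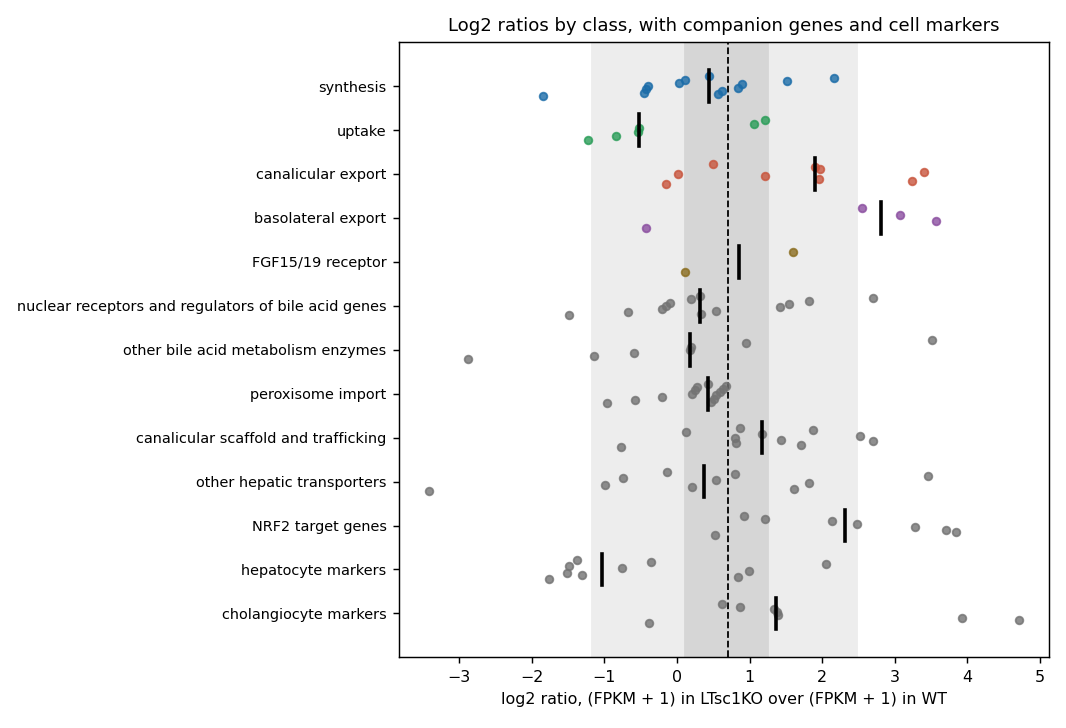
Log2 ratio of each expressed gene (points) by class, companion list and cell marker list, with the median of each list as a black bar. The dark and pale bands hold the middle 50% and middle 90% of 12395 expressed genes, and the dashed line is their median. The 2 export classes, the receptor pair, the canalicular scaffold genes, NRF2 targets and the cholangiocyte markers have medians right of it, and the other 7 lists drawn lie left of it.

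Among hepatocyte markers 5 of 10 were at least 2-fold lower in LTsc1KO (50%, against 6.15% of expressed genes) and 1 was higher (10.0%, against 35.6%). They summed to 27091 FPKM in LTsc1KO and 41049 in WT, none was at 0, and both libraries thus carried the defining transcripts of liver. Many of the exporters and uptake carriers are expressed in the same cells as these markers. Slco2a1, however, is found in endothelial cells, and Slco2b1 is also expressed outside hepatocytes. The share of hepatocyte RNA in each sample was not tested as a source of the differences.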

How the data were processed

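For each library the authors deposited FPKM per gene, as the column headers state. Bowtie 0.12.2, CASAVA 1.7 and the build mm8 are named, without a role, in the submitters' processing notes. The sources used here do not give the counter, the annotation, strand or how reads matching more than 1 gene were counted. The coordinates printed are GRCm38 positions of GENCODE M21, and the promoter windows are those of RefSeq on GRCm38.p6. Of 35275 gene IDs 34490 (97.8%) matched a symbol.

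Whole reads were recovered from the FPKM. The commonest product of FPKM and annotated length among low genes is the worth of 1 read, which gives each library's total. For 17 genes of the set both values were whole at the annotated length, for 12 at another length within 50% of it, and for 6 (Cyp39a1, Amacr, Abcb1b, Abcb4, Abcc4 and Slc51a) the reads and their intervals are estimates. No count model was used, since each genotype is 1 library.

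Members and lists were chosen with earlier results of these data known. All members are named, and of the lists for regulators, other enzymes, scaffold, import and NRF2 targets at least the 2 highest and 2 lowest expressed genes, apart from some that are not reported here. The pairs for quotients within a library, and the other genes named from these lists, were chosen after the values were seen. The alternatives were other pseudocounts, filters, scalings and a 4-fold limit. The functions were tested on simulated data. Tools were scipy 1.17.1, pandas 2.3.3 and numpy 2.4.6 under Python 3.11.15, with figures from matplotlib 3.10.9.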

Additional observations from a re-analysis of the deposited data

How the results depend on the processing

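No paired analysis was possible because each genotype is 1 library, and no replicate could be left out. On the deposited scale 14 genes were at least 2-fold higher and 2 lower. With the median ratio set to 0 these counts were 9 and 9, and with equal upper quartiles 10 and 9. The genes that then passed as lower were Cyp7a1, Cyp27a1, Baat, Slc10a1, Slco1a4, Slco1b2 and Abcc6, under both. A pseudocount of 5 left 9 higher, by construction, since it shrinks low genes. A 4-fold limit left 6 higher and 0 lower. No gene at least 2-fold from WT as deposited changed sign under any alternative run. Smaller differences did: 8 genes changed sign with the median ratio set to 0.

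Class medians are given in the order synthesis, uptake, canalicular export, basolateral export and FGF15 receptor. They were -0.27, -1.23, 1.20, 2.15 and 0.20 with the median ratio set to 0, and -0.25, -1.21, 1.22, 2.16 and 0.22 with equal upper quartiles. Equal sums of FPKM gave 0.62, -0.35, 2.08, 2.97 and 1.02. Equal sums outside the 100 most abundant genes of either library, an alternative chosen after seeing the data, gave 0.089, -0.88, 1.55, 2.47 and 0.52. Only the synthesis median changed sign. A pseudocount of 0.1 moved basolateral export to 3.45 and the receptor to 1.03, and a pseudocount of 5 gave 0.91, 1.53 and 0.50 for the last 3. Low counts limit Abcc4, Abcb1b, Slco1a1 and Slc51b, whose WT values rest on 9 to 36 reads.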

Other observations

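Proteins that hold the canalicular membrane and its pumps in place were also read. Of 11 scaffold and trafficking genes 6 (54.5%) were at least 2-fold higher in LTsc1KO and none lower, against 35.6% and 6.15% of expressed genes. With the median ratio set to 0 these counts were 4 and 1, the latter Slc9a3r1, against 15.6% and 12.7%. The median log2 ratio was 1.17 as deposited and 0.56 under that scaling. The highest was Cgn, the tight junction protein cingulin, at 20.4 FPKM in LTsc1KO and 2.28 in WT. Myo5b, the motor that carries pumps to the canaliculus, had 24.1 FPKM in LTsc1KO and 6.66 in WT, and Pdzk1, a scaffold of membrane transporters, had 16.6 and 3.81. The lowest were Slc9a3r1, a scaffold that binds ezrin, at 81.9 FPKM in LTsc1KO and 140.0 in WT, and Tmem30a, the partner subunit of Atp8b1, at 45.8 and 41.8.

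Genes for import into peroxisomes, where the side chain of bile acids is shortened, had log2 ratios from -0.96 to 0.67. All 13 were expressed, with a median log2 ratio of 0.43. None reached 2-fold, against 35.6% of expressed genes higher and 6.15% lower. Pex13 was the highest at 0.67, and Pex6 and Pex16 were the lowest at -0.96 and -0.58. With the median ratio set to 0 the last 2 were past 2-fold lower, against 12.7% of expressed genes.

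Among 10 other hepatic transporters 3 were at least 2-fold higher (30.0%, against 35.6% of expressed genes) and 1 lower (10.0%, against 6.15%). Of the 3 higher, Abcc1 and Abcg1 were called expressed by their LTsc1KO level alone. These counts were 3 and 3 with the median ratio set to 0, against 15.6% and 12.7% of expressed genes. Abcc5, an exporter of nucleotides, had 39.3 FPKM in LTsc1KO and 2.68 in WT (14.7-fold higher, interval 12.6 to 17.2), and Abcc1, a glutathione conjugate pump, had 4.92 and 0.684. Slc22a7, an organic anion carrier, had 3.80 FPKM in LTsc1KO and 50.4 in WT.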
